A study of Mus musculus with 8 samples.

Results

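The genes described are a program of stress and amino-acid genes associated with the transcription factor ATF4, together with serine, folate one-carbon and amino-acid transport genes. They were taken as the probe sets annotated with exactly 1 of 34 listed symbols, with the brightest probe set standing for a gene. Of the 34 symbols, 33 had such a probe set, 1 each, among 19938 genes measured; Pycr1, a proline synthesis gene, had none in the annotation used and was not analysed. The samples were 8 arrays of mouse 3134 cells, a C127-derived line that started from a mammary tumour of an RIII mouse. Every sample carried the same stably integrated transgenes, A-fos and the tetracycline regulator tTa. A-fos binds the partners of Fos and stops AP-1 from reaching DNA, and under Tet-Off control tetracycline silences it. The study asked how the response to the synthetic glucocorticoid dexamethasone depends on AP-1.

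There were 4 groups of 2 arrays: control cells at 0 h and cells given 100 nM dexamethasone for 4 h, each titled as without or with tetracycline. All cells grew in medium with added L-glutamine and non-essential amino acids, and spent the last 48 h before hormone in charcoal-stripped serum. The treatment protocols state, for all 8 samples, the tetracycline state opposite to that of the title and the characteristics. The names no-titled and plus-titled stand for the arms below, differences are plus-titled minus no-titled, and which arm expressed A-fos is not settled here. The labels give neither the transgene's dose in these cells nor whether the line is 1 clone, and they do not say that replicates were separate cultures, so p-values measure the spread between these arrays, which may be technical. Replicate arrays correlated at 0.993 to 0.996 across genes, and the untreated plus-titled pair stood furthest apart, with 24 genes over 2-fold different against 4 to 11 in the other pairs. Median signals (log2) of the 7 luminal markers lay between 3.33 for the milk gene Csn2 and 5.91 for Krt8, with Epcam at 4.40 and Cdh1 at 4.91. Those of the 6 mesenchymal markers lay between 5.88 for Thy1 and 12.82 for Vim. For the mean of both times, 11% of all genes were higher and 7.74% lower by limma at an adjusted p under 0.05. By that test 0 of 4 leukocyte, 3 endothelial and 2 corticotroph markers differed between the arms (0 also at an unadjusted p under 0.05). Among the 7 luminal markers 0 differed (1 at an unadjusted p under 0.05). Of 5 basal markers Krt14 was lower (-1.40) and Acta2 higher (1.55), of 3 adipocyte markers Fabp4 was lower (-0.79), and of 6 mesenchymal ones Fn1 (-0.34) and Vim (-0.30) were lower and Pdgfrb (0.41) higher (adjusted p from 3.38e-05 to 0.0146). Acta2 replicates lay apart in the plus-titled arm (8.15 and 6.96 at 0 h, 7.87 and 6.63 at 4 h). Fabp4 was not called at 0 h and was at -1.35 at 4 h, having risen by 1.68 with hormone in the no-titled arm. The part of these markers in the differences below was not tested. Signals of different probe sets are not on a common scale, and signals are compared below only within a gene.

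ATF4 is made when phosphorylation of the initiation factor eIF2 lowers general protein synthesis, a state called the integrated stress response. With partners such as C/EBP proteins it binds composite sites in genes that import amino acids, build asparagine, serine, proline and alanine, and charge tRNAs. Serine feeds the folate cycle, in which mitochondrial and cytosolic enzymes pass single carbons on to purine and thymidylate synthesis. In dividing cells these genes are often active together.

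Most of the program was lower in the plus-titled arm, both with and without hormone. At 0 h, 23 of 33 genes were lower and 0 higher by limma at an adjusted p under 0.05 (27 lower and 0 higher at an unadjusted p under 0.05), against 3.18% of all 19938 genes that were lower. After 4 h of dexamethasone 22 were lower and 0 higher (25 and 0 unadjusted), against 4.32% of all genes. At both times 21 were lower, against 2.06% of all genes. The median difference of the 33 genes was -0.73 at 0 h and -0.70 at 4 h (log2), beside -0.02 and -0.01 over all genes. For the mean of both times, 4 arrays against 4, 26 genes were lower (7.74% of all genes) and 7 did not pass. In 24 genes each plus-titled array lay below each no-titled array, an order found in 9.05% of all genes. The members were chosen with earlier results of these data known. The excess over all genes therefore describes the list and is no independent test of it. Whether fewer cells used these genes or each cell held less of their RNA cannot be told apart in these bulk samples.

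**Figure D1:**
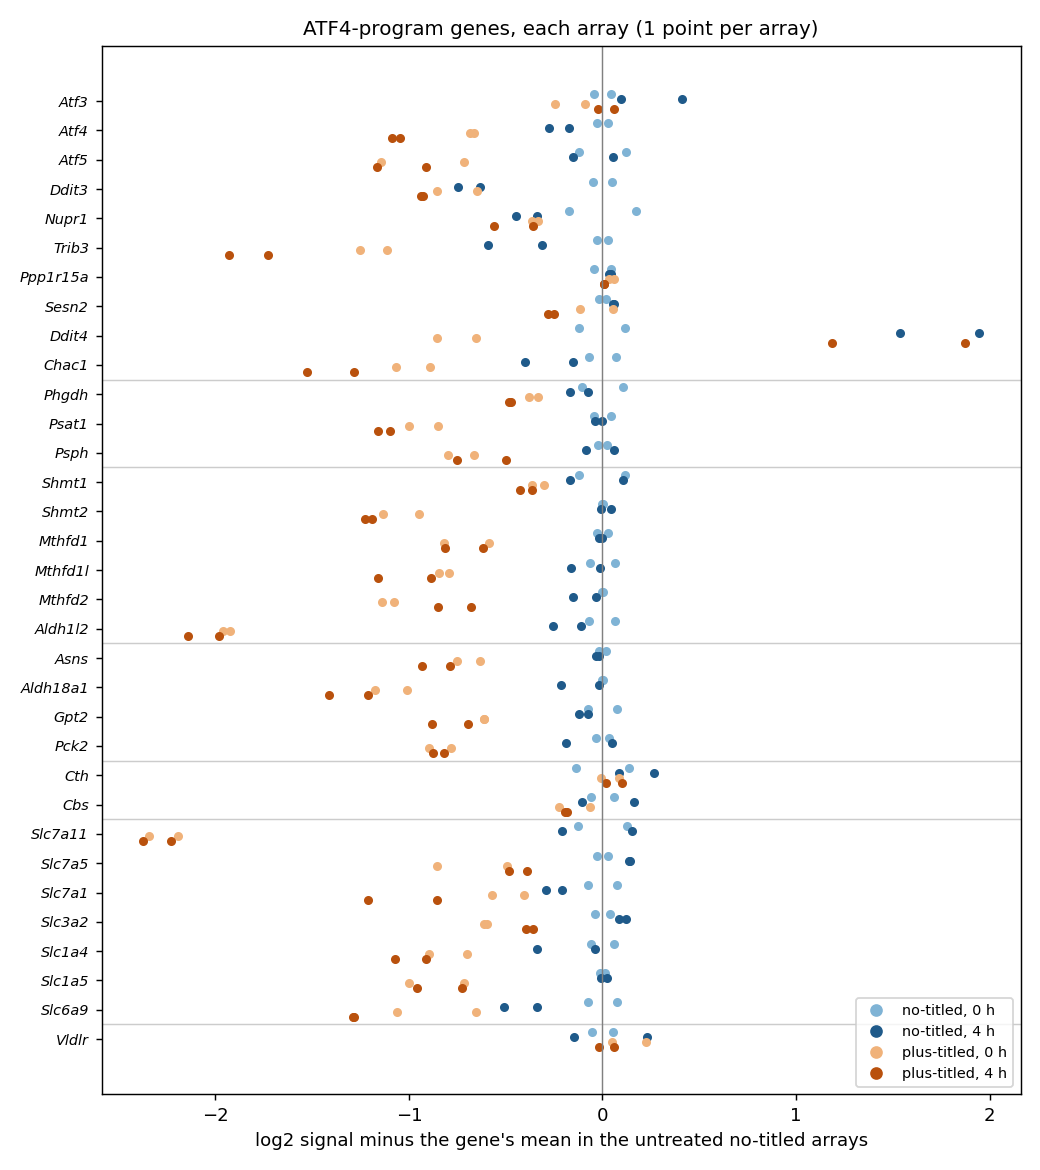
Log2 signal of each of 33 genes on each of the 8 arrays, minus that gene's mean on the 2 untreated no-titled arrays; 1 point is 1 array, colours are the 4 groups and grey lines separate the roles. In 24 genes all 4 plus-titled arrays (orange) lie left of all 4 no-titled arrays (blue), and Ddit4 moves right with hormone in both arms.

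The arm differences at 0 h and at 4 h come from different arrays and were close to each other gene by gene. They differed by less than 0.25 on the log2 scale in 27 of 33 genes. Gaps this small were common over all genes and are not particular to the program. The 4 h minus 0 h gap of 0.25 in Cebpg stood at percentile 90.1 of all genes, and that of -0.22 in Eif2ak3 at percentile 13.2. Pearson's r over the 33 genes was 0.92, a description only, since genes are not independent replicates and all arrays were normalized together. Slc7a11 had the lowest arm difference of all 19938 genes at 0 h, at 4 h and for the mean. Aldh1l2 ranked 2 at 0 h and 4 at 4 h in that order.

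**Figure D2:**
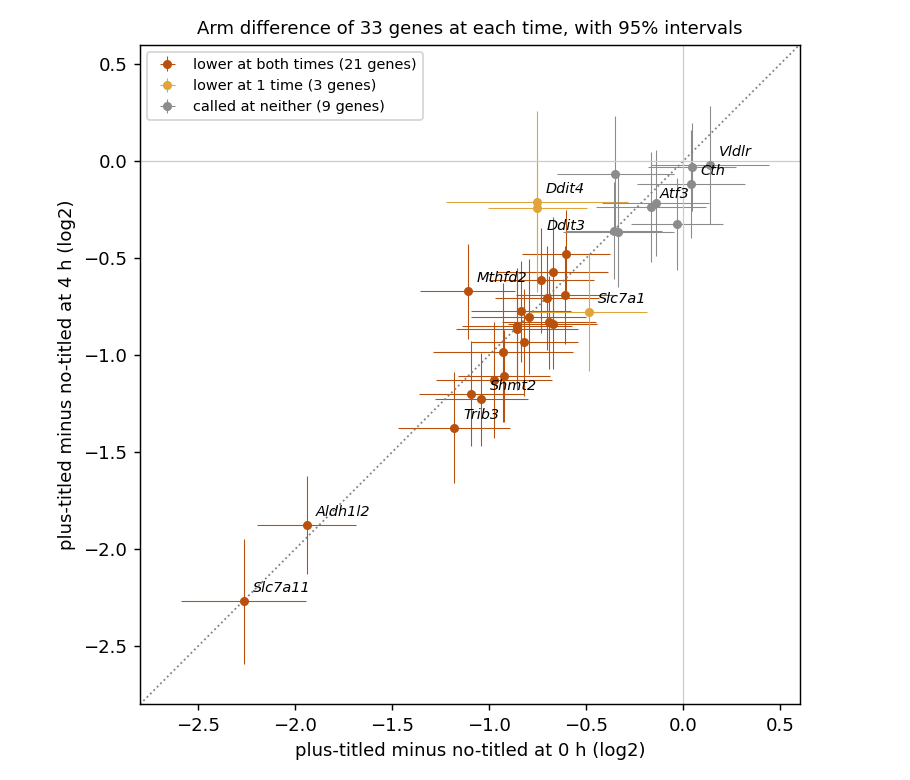
Plus-titled minus no-titled difference (log2) of 33 genes at 0 h (horizontal) and at 4 h (vertical); bars are 95% intervals from limma, the dotted line marks equal differences and colours give the number of times a gene passed. The 21 genes lower at both times lie along the dotted line down to Slc7a11 at -2.27 on each axis, and 9 genes passed at neither time.

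The members' RefSeq promoters (GRCm38.p6, 250 bases before to 50 after the start) were searched on both strands. The letters sought were the core of the ATF4 composite site, TGATGNAA. Promoters were found for 30 of the 34 symbols, 29 of them measured; Aldh1l2, Cth, Slc7a5 and Slc1a5 had no entry. The letters occurred in 10 of 30 genes (33.3%), against 1219 of 27025 genes with a promoter in the table (4.51%). The exact form TGATGCAA occurred in 7 of the 30 and in 1.03% of all genes. The list was drawn up from known ATF4 and related genes, so a raised share describes the list. It is not evidence that ATF4 acted in these samples. The 30-base stretches below are those before the start, read 5′ to 3′ on the gene's strand with the match in capitals, for 4 genes that were lower in the plus-titled arm and then for 3 that were not called.
Slc7a11, chr3:50443661-50443690, minus strand: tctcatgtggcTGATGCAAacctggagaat
Slc7a11, chr3:50443642-50443671, minus strand: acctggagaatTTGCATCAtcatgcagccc
Chac1, chr2:119351038-119351067, plus strand: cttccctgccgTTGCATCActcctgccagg
Asns, chr6:7693214-7693243, minus strand: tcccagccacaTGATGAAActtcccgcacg
Pck2, chr14:55540152-55540181, plus strand: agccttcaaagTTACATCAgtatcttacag
Atf3, chr1:191183425-191183454, minus strand: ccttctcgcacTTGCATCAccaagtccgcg
Nupr1, chr7:126625562-126625591, minus strand: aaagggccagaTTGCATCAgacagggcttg
Vldlr, chr19:27216809-27216838, plus strand: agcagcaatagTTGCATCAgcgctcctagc
Slc7a11 held a match in each direction, 66 and 47 bases before its start, and Asns held 1 at 23 bases. The matches of Trib3 and Slc1a4 lay after or across the start and are not shown, and that of Pycr1 belongs to the unmeasured gene.

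Both genes with and genes without the letters were mostly lower. For the mean of both times, 6 of 9 measured genes with a match were lower, with a median difference of -0.80. Of those without a match 17 of 20 were lower, with a median of -0.66. Over all genes 7.74% were lower, and the share among all genes with the letters was not counted. Both sets come from the same chosen list, and the difference between them was not tested. The AP-1 letters TGANTCA, which read the same on both strands, occurred in 2 of 30 genes (6.67%) and in 8.97% of all genes. No promoter of these genes held both motifs. The 2 genes with AP-1 letters were the arginine transporter gene Slc7a1 and Ddit3, whose stretches follow with the match in capitals.
Slc7a1, chr5:148400010-148400038, minus strand: gccatcagctcTGACTCAagctcagttgc
Ddit3, chr10:127290543-127290568, plus strand: cgcgcgcaTGACTCActcacctcctc
A match describes letters in this window and does not show binding.

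Among the stress regulators, Atf4 itself was lower in the plus-titled arm. It is described here because the program bears its name. Its log2 signals were 9.52 and 9.57 in the untreated no-titled arrays, 9.27 and 9.37 in the treated no-titled arrays, 8.86 and 8.88 in the untreated plus-titled arrays and 8.50 and 8.46 in the treated plus-titled arrays. The groups did not overlap, and the treated plus-titled pair was lowest. The arm difference was -0.67 ± 0.10 (log2, SE) at 0 h and -0.84 ± 0.10 at 4 h, which is 1.59-fold and 1.79-fold lower (limma adjusted p = 0.00324 and 0.00104). ATF4 is controlled largely at translation, so its mRNA does not measure the protein.

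Trib3, a pseudokinase that restrains ATF4 and CHOP, had signals of 8.58 and 8.64 (0 h) and 8.02 and 8.30 (4 h) in the no-titled arm, and 7.36 and 7.50 (0 h) and 6.88 and 6.68 (4 h) in the plus-titled arm. The 4 groups formed separate levels, with the treated plus-titled pair lowest. Its arm difference was -1.18 ± 0.13 at 0 h and -1.38 ± 0.13 at 4 h (adjusted p = 0.000689 and 0.000273). Chac1, which degrades glutathione, had signals of 8.05 and 8.19 (0 h) and 7.72 and 7.97 (4 h) in the no-titled arm, and 7.06 and 7.23 (0 h) and 6.60 and 6.84 (4 h) in the plus-titled arm. All plus-titled arrays lay below all no-titled arrays, at -0.98 ± 0.13 and -1.13 ± 0.13 (adjusted p = 0.00182 and 0.000822). Atf5, a relative of ATF4, had signals of 9.18 and 9.42 (0 h) and 9.15 and 9.35 (4 h) in the no-titled arm, and 8.15 and 8.58 (0 h) and 8.14 and 8.39 (4 h) in the plus-titled arm. Its arrays also separated by arm, at -0.93 ± 0.16 and -0.99 ± 0.16 (adjusted p = 0.00606 and 0.00434). The 0 h call of Atf5 was lost without replicate 2 of the untreated no-titled group (-0.81, adjusted p = 0.0584).

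Of the 10 stress regulators, 6 were lower at 0 h and 4 at 4 h. Ddit3, which encodes the pro-apoptotic factor CHOP, and Ddit4, an mTORC1 inhibitor also called REDD1, were lower at 0 h (-0.75 and -0.75, adjusted p = 0.00307 and 0.0499) and did not pass at 4 h (-0.24 and -0.21, adjusted p = 0.248 and 0.648). Ddit4 stood at the threshold, and its 0 h call was lost without either array of the untreated no-titled or the untreated plus-titled group (-0.63 to -0.87, adjusted p from 0.105 to 0.249) and with either other choice of probe sets per gene (adjusted p = 0.0507 and 0.0526). For the mean of both times Ddit4 was lower at -0.48 ± 0.15 (adjusted p = 0.0465), lost without any 1 of the untreated arrays, replicate 2 of the treated no-titled or replicate 1 of the treated plus-titled group (-0.31 to -0.54, adjusted p from 0.063 to 0.154). The other 4 regulators passed at neither time. These are Atf3, another stress-induced bZIP factor (-0.17 and -0.24), Nupr1, a small stress chromatin protein (-0.35 and -0.07), Ppp1r15a, the phosphatase subunit GADD34 that reverses eIF2 phosphorylation (0.05 and -0.03), and Sesn2, a leucine sensor (-0.03 and -0.32). Their adjusted p ranged from 0.0927 to 0.91. With the trend and robust variance Sesn2 passed at 4 h (adjusted p = 0.0492). For Ppp1r15a the 95% interval of the mean difference was -0.15 to 0.17, and for Sesn2 -0.34 to -0.01.

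**Figure D3:**
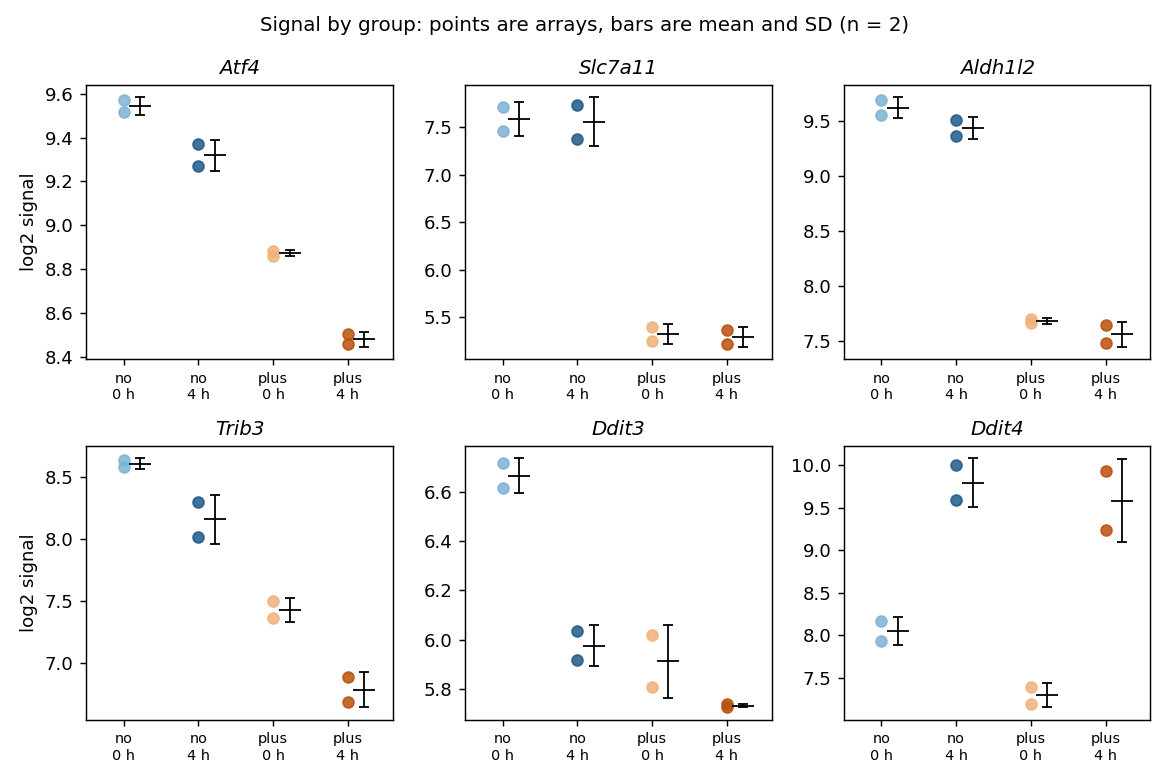
Log2 signal of Atf4, Slc7a11, Aldh1l2, Trib3, Ddit3 and Ddit4 in the 4 groups (no-titled and plus-titled, 0 h and 4 h); points are arrays, black marks are the mean and SD (n = 2), and each panel has its own axis, which does not start at 0. Slc7a11 and Aldh1l2 separate by arm, with treated and untreated arrays overlapping within arms for Slc7a11 and not for Aldh1l2. Ddit4 is highest in the treated groups of both arms, and Ddit3 is highest in the untreated no-titled pair.

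Serine synthesis from glycolysis takes 3 steps, by PHGDH, PSAT1 and PSPH, and the genes of the last 2 were lower at both times. Psat1 had signals of 10.62 and 10.71 (0 h) and 10.63 and 10.66 (4 h) in the no-titled arm, and 9.67 and 9.82 (0 h) and 9.51 and 9.57 (4 h) in the plus-titled arm. The arms did not overlap, and the differences were -0.92 ± 0.11 and -1.11 ± 0.11 (adjusted p = 0.000861 and 0.000328), or 1.9-fold and 2.15-fold lower. Psph was lower at -0.73 and -0.61 (adjusted p = 0.00487 and 0.0107), the 4 h call being lost without replicate 2 of the treated no-titled group (-0.54, adjusted p = 0.0843) or replicate 1 of the plus-titled treated pair (-0.49, adjusted p = 0.0833). Phgdh, the first step, passed at neither time (-0.36 and -0.36, adjusted p = 0.0772 and 0.0765). It did pass at both times with the trend and robust variance (adjusted p = 0.0181 and 0.0165) and with the filter on dim genes (0.0462 and 0.0455). For the mean of both times it was lower at -0.36 ± 0.08 (adjusted p = 0.00951), and that call was lost without replicate 1 of the untreated no-titled group (-0.31, adjusted p = 0.0512). The 95% intervals of Phgdh (-0.53 to -0.18) and Psat1 (-1.18 to -0.85) for the mean did not overlap; the difference between the genes was not tested.

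In the folate cycle all 4 mitochondrial enzyme genes of the program were lower in the plus-titled arm at both times. This does not cover every folate enzyme gene measured. Mthfd2l, from a list described below, had overlapping arms. Its signals were 6.95 and 6.97 (0 h) and 6.68 and 6.79 (4 h) in the no-titled arm. In the plus-titled arm they were 7.21 and 6.91 (0 h) and 6.86 and 6.76 (4 h). Aldh1l2, which oxidizes formyl-tetrahydrofolate and makes NADPH, had signals of 9.56 and 9.69 (0 h) and 9.37 and 9.51 (4 h) in the no-titled arm, and 7.70 and 7.66 (0 h) and 7.48 and 7.64 (4 h) in the plus-titled arm. The plus-titled arrays lay in a narrow band well below all no-titled arrays. Its differences were -1.94 ± 0.11 and -1.88 ± 0.11, or 3.84-fold and 3.67-fold lower (adjusted p = 2.92e-05 and 4.57e-05). Shmt2, which splits serine to glycine in mitochondria, had signals of 9.79 and 9.79 (0 h) and 9.78 and 9.83 (4 h) in the no-titled arm, and 8.84 and 8.65 (0 h) and 8.56 and 8.60 (4 h) in the plus-titled arm. Its no-titled arrays were nearly identical, and the differences were -1.04 ± 0.11 and -1.23 ± 0.11 (adjusted p = 0.000511 and 0.000176). Mthfd2, the mitochondrial dehydrogenase and cyclohydrolase, had signals of 9.32 and 9.32 (0 h) and 9.17 and 9.28 (4 h) in the no-titled arm, and 8.24 and 8.18 (0 h) and 8.47 and 8.64 (4 h) in the plus-titled arm. Its difference was -1.11 ± 0.11 at 0 h and -0.67 ± 0.11 at 4 h (adjusted p = 0.000419 and 0.00436). Mthfd1l, which releases formate, had signals of 9.26 and 9.13 (0 h) and 9.18 and 9.03 (4 h) in the no-titled arm, and 8.40 and 8.35 (0 h) and 8.31 and 8.04 (4 h) in the plus-titled arm. These gave -0.82 ± 0.12 and -0.94 ± 0.12 (adjusted p = 0.00296 and 0.0014), with no overlap between arms.

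Of the 2 cytosolic folate genes of the program, 1 was lower at both times. Mthfd1, the cytosolic trifunctional enzyme, was lower at -0.70 and -0.70 (adjusted p = 0.00552 and 0.00509). Its calls were lost without replicate 1 of the untreated no-titled group (-0.67, adjusted p = 0.0539) and without replicate 2 of the plus-titled treated pair (-0.61, adjusted p = 0.0544). Shmt1, the cytosolic counterpart of Shmt2, passed at neither time (-0.33 and -0.36, adjusted p = 0.147 and 0.115). It was lower for the mean at -0.35 ± 0.09 (adjusted p = 0.0211). It was not called without replicate 1 of the untreated no-titled (-0.29, adjusted p = 0.095), the treated no-titled (-0.28, 0.0909) or the treated plus-titled group (-0.33, 0.0649), or without replicate 2 of the untreated plus-titled group (-0.33, 0.055). The 95% intervals of the mean difference were -0.55 to -0.15 for Shmt1 and -1.30 to -0.96 for Shmt2 and did not overlap; the difference between the genes was not tested.

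The 4 measured enzymes of asparagine, proline, alanine and phosphoenolpyruvate synthesis were lower at both times. Aldh18a1, the first step from glutamate to proline, had signals of 10.16 and 10.16 (0 h) and 10.14 and 9.95 (4 h) in the no-titled arm, and 9.15 and 8.99 (0 h) and 8.95 and 8.75 (4 h) in the plus-titled arm. The arms were separate, at -1.09 ± 0.12 and -1.20 ± 0.12 (adjusted p = 0.000761 and 0.000401). Asns, asparagine synthetase and a textbook ATF4 target, was lower at -0.69 and -0.83 (adjusted p = 0.0036 and 0.00131). Pck2, the mitochondrial phosphoenolpyruvate carboxykinase, differed by -0.84 and -0.78, and Gpt2, the mitochondrial alanine transaminase, by -0.61 and -0.69. Their adjusted p lay between 0.002 and 0.00817, and Gpt2 at 0 h was lost without replicate 2 of the untreated no-titled group (-0.53, adjusted p = 0.0819). The transsulfuration genes Cth and Cbs, which make cysteine from methionine, did not pass at either time. Their mean differences were -0.04 (95% interval -0.24 to 0.16) and -0.18 (-0.37 to 0.02). The lipoprotein receptor gene Vldlr, an ATF4 target under stress, was at 0.06 (-0.16 to 0.27). Mean signals of Cth and Vldlr were 4.49 and 4.78 (log2).

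Of the 7 transporter genes, 6 were lower at 0 h and 7 at 4 h. Slc7a11, the light chain of the cystine and glutamate exchanger, had signals of 7.46 and 7.71 in the untreated no-titled arrays, 7.38 and 7.74 in the treated no-titled arrays, 5.25 and 5.40 in the untreated plus-titled arrays and 5.22 and 5.36 in the treated plus-titled arrays. Within each arm treated and untreated arrays overlapped, and every plus-titled array lay below every no-titled one. The difference was -2.27 ± 0.15 at 0 h and -2.27 ± 0.15 at 4 h, or 4.81-fold and 4.82-fold lower (adjusted p = 2.92e-05 and 5.67e-05). The glycine transporter gene Slc6a9 had signals of 8.72 and 8.87 (0 h) and 8.29 and 8.46 (4 h) in the no-titled arm, and 7.74 and 8.14 (0 h) and 7.50 and 7.51 (4 h) in the plus-titled arm. These gave -0.86 ± 0.14 and -0.86 ± 0.14 (adjusted p = 0.00479 and 0.00431). Slc1a5, which carries glutamine, had signals of 8.89 and 8.87 (0 h) and 8.87 and 8.90 (4 h) in the no-titled arm, and 7.88 and 8.16 (0 h) and 7.92 and 8.15 (4 h) in the plus-titled arm. Its no-titled arrays were nearly identical, and the differences were -0.86 ± 0.13 and -0.85 ± 0.13 (adjusted p = 0.00279 and 0.00283).

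The other four transporters had differences between -0.48 and -0.80. Slc1a4, a neutral amino-acid carrier, was at -0.80 and -0.80 (adjusted p = 0.00507 and 0.00459). The leucine transporter gene Slc7a5 was at -0.67 and -0.57 (adjusted p = 0.00956 and 0.0189). Slc3a2, the heavy chain that pairs with the products of Slc7a5 and Slc7a11, was at -0.60 and -0.48 (adjusted p = 0.0052 and 0.0152). Slc7a1, which carries arginine, lay just outside the threshold at 0 h (-0.49, adjusted p = 0.0501) and passed at 4 h (-0.78, adjusted p = 0.00581). Its 0 h call was gained in 6 of 16 other settings, among them the trend and robust variance (adjusted p = 0.0134), the filter on dim genes (0.0296) and cyclic loess (-0.54, 0.0382). Without single arrays some calls were lost. Slc7a5 was lost at 0 h without either untreated no-titled array (-0.64 and -0.70, adjusted p = 0.0765 and 0.0536) and at 4 h without any 1 of the 4 treated arrays (adjusted p from 0.0624 to 0.125). Slc3a2 was lost at 0 h without replicate 2 of the untreated no-titled group (-0.57, adjusted p = 0.0551) and at 4 h without any 1 of the 4 treated arrays (adjusted p from 0.0779 to 0.0957). Slc7a1 at 4 h was lost without replicate 1 of the treated no-titled group (-0.74, adjusted p = 0.053) or replicate 2 of the plus-titled treated pair (-0.60, adjusted p = 0.0551).

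Few genes of the program passed the test of the response to 4 h of dexamethasone. In the no-titled arm 1 of 33 genes rose (1.03% of all genes) and 1 fell (0.401%). In the plus-titled arm 1 rose (0.823%) and 1 fell (0.281%). The median response of the 33 genes was -0.03 and -0.11 (log2) in these arms, beside 0.01 and -0.01 over all genes. Apart from Ddit3, Ddit4 and Trib3, the responses of the other 30 genes lay between -0.42 and 0.25 in the no-titled arm and between -0.54 and 0.35 in the plus-titled arm.

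Ddit4, a known glucocorticoid-induced gene, rose in both arms. Its signals were 7.93 and 8.17 in the untreated no-titled arrays, 9.59 and 10.00 in the treated no-titled arrays, 7.20 and 7.40 in the untreated plus-titled arrays and 9.24 and 9.93 in the treated plus-titled arrays. In each arm both treated arrays lay above both untreated ones, and the treated groups of the arms overlapped. The rise was 1.74 ± 0.21 (3.34-fold, adjusted p = 0.00146) in the no-titled arm and 2.28 ± 0.21 (4.87-fold, adjusted p = 0.000285) in the plus-titled arm. Ddit3 had signals of 6.62 and 6.72 (0 h) and 6.03 and 5.92 (4 h) in the no-titled arm, and 5.81 and 6.02 (0 h) and 5.74 and 5.73 (4 h) in the plus-titled arm. The untreated no-titled pair stood above the other 6 arrays, which spanned 5.73 to 6.03. Ddit3 fell in the no-titled arm by 0.69 ± 0.12 (adjusted p = 0.0121) and was at -0.18 in the plus-titled arm (adjusted p = 0.675). The fall was lost without any 1 of that arm's own arrays (adjusted p from 0.0619 to 0.141). Trib3 fell in the plus-titled arm by 0.65 ± 0.13 (adjusted p = 0.0443) and was at -0.45 in the no-titled arm (adjusted p = 0.184). That fall was lost without any 1 of the plus-titled arrays (-0.55 to -0.75, adjusted p from 0.096 to 0.352) or either untreated no-titled array (adjusted p = 0.0796). It was also lost with the replicate block (adjusted p = 0.0668), with cyclic loess (-0.60, 0.0626) and with only the arrays compared (0.0778).

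**Figure D4:**
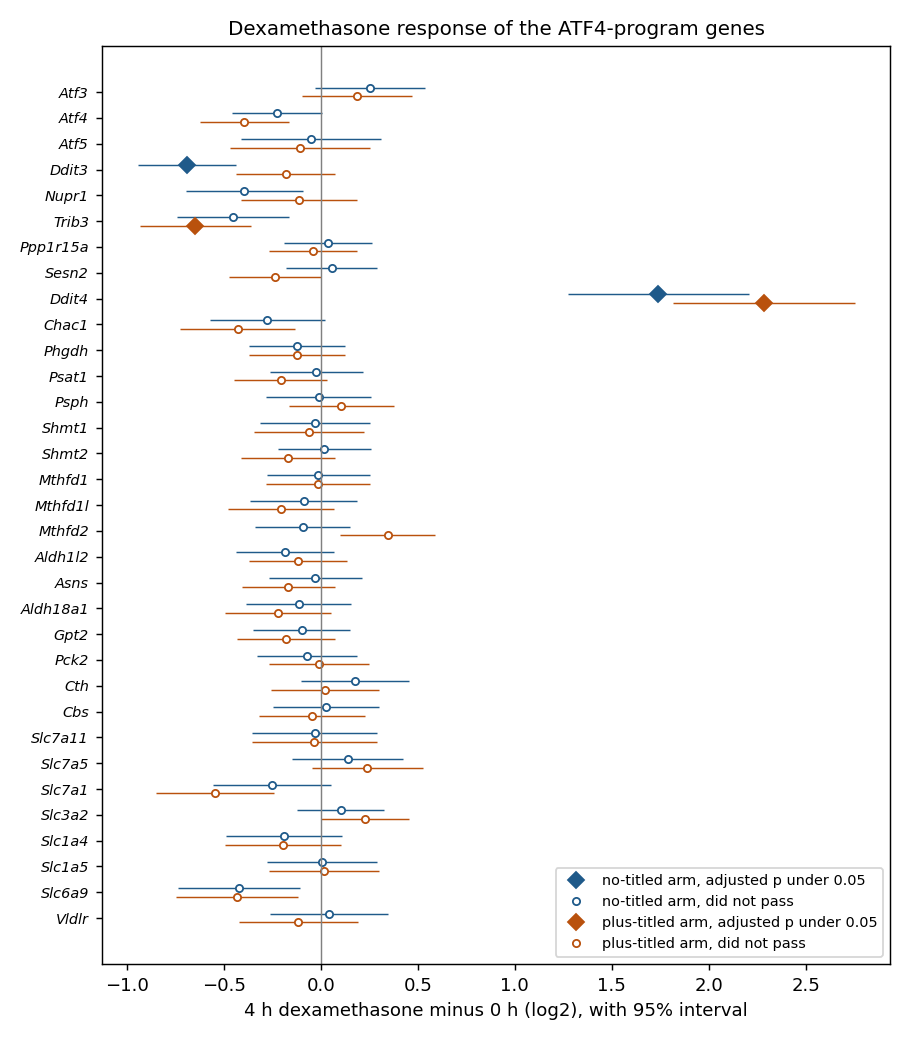
Response of 33 genes to 4 h of dexamethasone (log2, treated minus untreated) in the no-titled arm (blue) and the plus-titled arm (orange), with 95% intervals from limma; filled diamonds passed an adjusted p under 0.05. Ddit4 stands apart at 1.74 and 2.28, Ddit3 passed in the no-titled arm at -0.69 and Trib3 in the plus-titled arm at -0.65.

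The difference of the responses between the arms was called in 0 of 33 genes by limma, with 2 at an unadjusted p under 0.05, and in 0.00502% of all genes (1 gene, not of this program). These 2 were Ddit3, at 0.51 ± 0.16 (95% interval 0.15 to 0.87, adjusted p = 0.802), and Mthfd2, at 0.44 ± 0.16 (0.09 to 0.79, adjusted p = 0.902). For Slc7a11 the difference was -0.0027 with an interval of -0.46 to 0.45, for Atf4 -0.17 (-0.49 to 0.16), for Trib3 -0.19 (-0.60 to 0.21) and for Ddit4 0.54 (-0.12 to 1.21). The intervals' median half-width was 0.39, which is the precision a single gene had here. A missed threshold does not show that the arms responded alike.

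Genes of the machinery upstream of ATF4 were called in both directions. Counts in this and the next paragraphs are for the mean of both times, in which 11% of all genes were higher and 7.74% lower. These lists too were chosen with earlier results of these data known, so their counts describe the lists. Of 16 measured eIF2 kinase, eIF2, eIF2B and phosphatase genes, 3 were higher, 4 lower and 9 did not pass (median -0.06). The kinase genes Eif2ak1 (HRI, 0.40), Eif2ak2 (PKR, 0.51) and Eif2ak4 (GCN2, 0.38) were higher, and Eif2s2 (-0.48), Ppp1r15b (-0.44), Eif2b3 (-0.35) and Eif2b5 (-0.32) were lower, with adjusted p between 0.0024 and 0.027. The lower count was 2 without either untreated no-titled array, replicate 1 of the treated no-titled group, or replicate 2 of either plus-titled group. Of 7 bZIP partners, Cebpg was lower at -0.55 ± 0.08 (adjusted p = 0.0011) and Jdp2 at -0.34 (0.0334). Nfe2l2, which encodes NRF2, was higher at 0.42 ± 0.08 (0.00384), as was Cebpd at 0.51 (0.0109). In 6 of the 8 fits without 1 array, each without 1 of the 4 no-titled arrays or replicate 2 of either plus-titled group, the lower count was 1.

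Of 11 measured aminoacyl-tRNA synthetase genes, 10 were lower, with a median of -0.69, led by Lars (-0.96 ± 0.07, adjusted p = 1.99e-05) and Gars (-0.93 ± 0.08, 5.56e-05). Of 13 other ATF4-responsive genes, 6 were lower and 7 did not pass. Bcat1, the cytosolic branched-chain transaminase, was at -1.43 ± 0.09 (adjusted p = 5.89e-06), and Herpud1, of endoplasmic reticulum degradation, at -0.84 ± 0.08 (6.27e-05). Of 18 other serine, folate and methionine cycle genes, 7 were lower, among them the purine synthesis genes Gart (-0.80) and Atic (-0.76, adjusted p = 7.16e-05 and 0.000359), and Srr, serine racemase, was higher (0.65, 0.00233). Without replicate 2 of the untreated no-titled group, 4 of the 18 were lower.

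Of 16 other amino-acid transporters measured, 0 were lower by limma (also 0 at an unadjusted p under 0.05) and 2 were higher. These were Slc36a1 (0.77 ± 0.07, adjusted p = 7.51e-05) and Slc38a9 (0.79 ± 0.11, 0.000536), both of which act at the lysosome. Of 13 endoplasmic reticulum chaperone and unfolded protein response genes 1 was lower by limma, the transcription factor gene Xbp1 (-0.51 ± 0.07, adjusted p = 0.000898). By that test 0 were higher (at an unadjusted p under 0.05, 5 of 13 passed in either direction, 2 of them higher). In other settings and with single arrays left out, up to 2 were higher, 2 under the trend and robust variance, and 2 were lower under that variance and cyclic loess. The chaperone gene Sdf2l1 was at 0.27 (adjusted p = 0.0679). Of 9 NRF2 target genes, among which Slc7a11 is also counted, 4 were lower and 2 higher. Beside Slc7a11 these were Srxn1 (-0.41), Gclm (-0.41) and Gsr (-0.25) among the lower, and Hmox1 (0.46) and Nqo1 (0.37) among the higher, with adjusted p between 0.00429 and 0.0374. Single arrays moved these counts. Without replicate 1 of either no-titled group or replicate 2 of either plus-titled group the lower count was 2. Without either untreated no-titled array, replicate 1 of the treated no-titled group or replicate 1 of the untreated plus-titled group the higher count was 1, and without replicate 1 of the plus-titled treated pair it was 0.

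DNA replication genes were also lower in the plus-titled arm. Of 18 measured, 17 were lower, with a median of -0.60, among them the helicase gene Mcm6 (-0.73 ± 0.08, adjusted p = 0.000128) and the licensing gene Cdt1 (-0.68 ± 0.07, 0.000141). At 0 h 10 of these 18 were lower, against 3.18% of all genes, and at 4 h 14, against 4.32%. Their part in the lower level of the serine and folate genes was not tested.

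**Figure D5:**
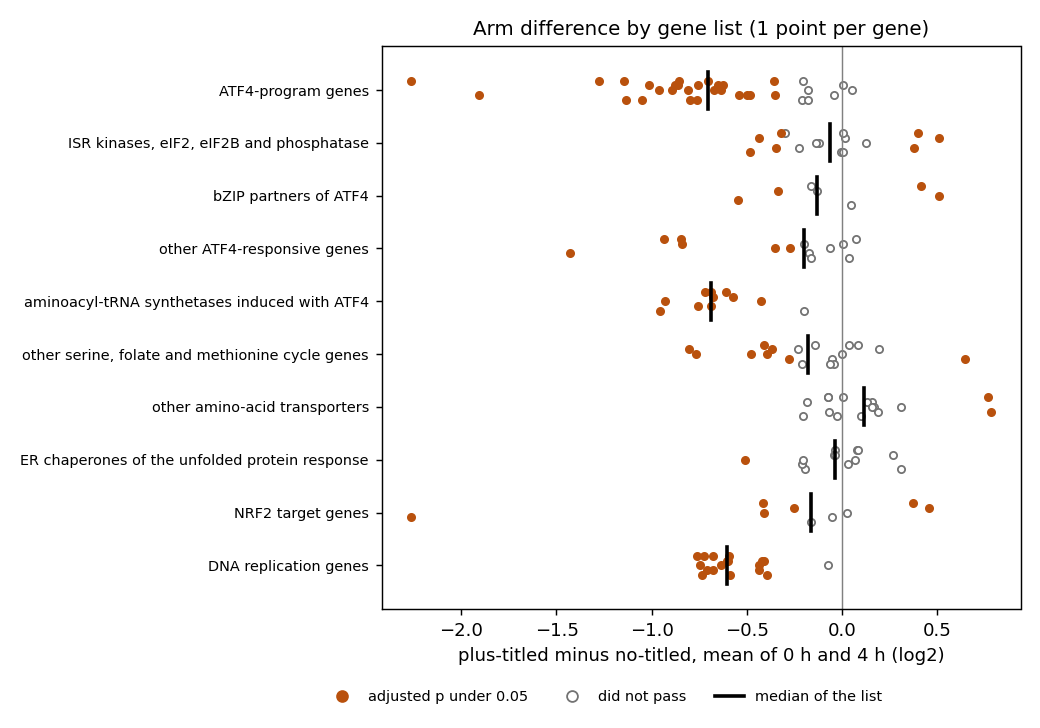
Plus-titled minus no-titled difference (log2, mean of 0 h and 4 h) of each gene in 10 lists; filled points passed an adjusted p under 0.05 and the bar is the list's median. The medians of the ATF4-program genes, the aminoacyl-tRNA synthetases and the DNA replication genes lie at -0.70, -0.69 and -0.60, and those of the other lists between -0.20 and 0.12.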

How the data were processed

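Total RNA of 8 samples was measured on 1-colour arrays. The deposited table holds log2 values by the authors for 28888 probe sets; per the submitters' processing notes these were made with Affymetrix Expression Console and RMA, whose quantile step equalizes the arrays and so hides any shift common to most genes. The number of arrays limits the precision. Probe sets were named by the platform annotation, with symbols looked up by gene number in RefSeq (GRCm38.p6, names only): 21789 had 1 symbol, 1621 several and 5478 none. The brightest probe set per symbol was kept and no signal filter applied. limma 3.58.1 (R 4.3.3, lmFit and eBayes) fitted the 4 group means to the 8 arrays. Tests were 2-sided, and p-values were adjusted by Benjamini-Hochberg across 19938 genes. Every adjusted p is from this model unless another setting is named; a gene was called under 0.05. Residual degrees of freedom were 4, with 6.64 from the prior, and the procedure was tested on simulated data.

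The members and lists were chosen with earlier results of these data known. Every member is named; values per array are given for the 12 called members with the largest mean arm difference, for members called in a hormone response, and for Atf4. Up to 2 genes of each other list with the smallest p are named, and further called genes of 5 or fewer were chosen after their values were seen, as was Atf4. Some listed genes carry older symbols in the annotation, such as Lars for Lars1. Settings varied were the variance model (trend and robust), the arrays in the fit, the replicate block, a dim-gene filter, median centring, cyclic loess, 2 probe set rules and each array left out.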

Additional observations from a re-analysis of the deposited data

Results flagged for a closer look

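Mthfd2 and Sesn2 had hormone responses of opposite sign in the arms, with treated and untreated arrays separate in each. The share of all genes with such an order was not counted, so it is not shown to be particular to these genes. Mthfd2, the mitochondrial folate dehydrogenase gene, responded by -0.09 (no-titled) and 0.35 (plus-titled). The responses differed by 0.44, short of the threshold (adjusted p = 0.902). Sesn2, the leucine sensor gene, responded by 0.06 and -0.24, differing by -0.29 (adjusted p = 0.99). None of the 4 responses passed on its own (adjusted p from 0.266 to 0.965). Each group had 2 arrays.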

How the results depend on the processing

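No member's arm difference or hormone response that had been called reversed its direction in any setting run. The number of members lower in the plus-titled arm ranged from 18 to 24 at 0 h, from 18 to 22 at 4 h and from 23 to 26 for the mean when each array was left out, and from 22 to 25, from 22 to 24 and at 26 in the other settings. Lower in every setting run were 17 of the 23 at 0 h, 17 of the 22 at 4 h and 23 of the 26 for the mean. The members that fell with hormone in the no-titled arm numbered 0 to 1 without single arrays. In the plus-titled arm they numbered 0 to 1 without single arrays, 0 with the replicate block, 0 with cyclic loess, 0 with only the arrays compared and 3 with the trend and robust variance, which added Atf4 (-0.39, adjusted p = 0.0321) and Slc7a1 (-0.54, 0.028).

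Over all genes, replicate differences correlated weakly between groups, at -0.02 to 0.13, which does not settle whether replicate numbers paired the samples. Some members shifted alike by replicate. Replicate 2 lay above replicate 1 in all 4 groups for Atf5, Slc7a11, Chac1, Psat1, Psph, Pck2, Slc1a4, Slc6a9, Slc3a2 and Ddit4. It lay below replicate 1 in all 4 groups for Mthfd1, Mthfd1l and Aldh18a1. How many of all genes had such an order was not counted. The replicate block changed 1 of 198 member results, the fall of Trib3. Listed genes with TGATGNAA numbered 8 of 30 when only bases before the start were searched, the unmeasured Pycr1 among them. With 2 arrays a group, a group left with 1 array was assumed to vary like the others. Over all genes, the count lower at 0 h was 634 and fell to between 176 and 549 without single arrays, and that at 4 h was 862 and ranged from 295 to 979. In the hormone responses, genes lower in the no-titled arm numbered 80, against 164 with the trend and robust variance and 52 with only the arrays compared, and those in the plus-titled arm 56, against 121 and 31. Without single arrays these counts ranged from 21 to 80 and from 12 to 41, and the counts of genes that were higher, 205 and 164, from 113 to 211 and from 68 to 146. The difference of the responses gave 1 gene, against 7 lower and 4 higher with the trend and robust variance.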
